A study of Mus musculus with 8 samples.

Results

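The genes described here are Igf1r, which encodes the receptor of the insulin-like growth factors (IGFs), and 5 genes of IGF binding proteins, Igfbp2, Igfbp3, Igfbp4, Igfbp5 and Igfbp7. They are 6 of the 13540 genes in the table and were picked by symbol, with their values over the stages already known, so their levels are a description and no test of them is given. Purified mRNA was sequenced from a 129/Ola mouse line of pluripotent cells while it was turned into heart muscle in culture. Cells were taken on day 0 as embryonic stem cells (ESC), on day 4 as mesodermal cells (MES), on day 5.3 as cardiac precursors (CP) and on day 10 as cardiomyocytes (CM). The MES, CP and CM stages came from the same protocol, in which cells first grew as floating embryoid bodies, were then exposed to VEGF, Activin A and BMP4 and were later plated with VEGF, basic FGF and FGF10. Each stage has 2 libraries, 8 in all, but the table holds 1 value per stage, in RPKM (reads per kilobase of gene model and per 1000000 reads). No spread between replicates can be given, and every difference below lacks a replicate check.

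IGF1 and IGF2 are secreted growth factors that signal through the receptor tyrosine kinase IGF1R and, in part, through the insulin receptor, into the PI3K to AKT and the RAS to ERK pathways. Secreted IGF binding proteins hold most IGF outside cells. Depending on the protein and on the proteases that cut it, they keep the ligand from the receptor or release it there. In the developing heart IGF2 from the epicardium is known to drive growth of the muscle wall.

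Stage markers followed the stage labels. The 5 pluripotency markers summed to 1383 RPKM in ESC, the 6 mesoderm markers to 409 RPKM in MES and the 9 cardiomyocyte markers to 1102 RPKM in CP and 9493 RPKM in CM. Depth was recovered from the steps between low values as about 75338000 reads for the ESC stage, 61961000 for MES, 64783000 for CP and 88528000 for CM. For all 6 genes whole read numbers were recovered, with gene models of 11978 bases for Igf1r, 1847 for Igfbp2, 3104 for Igfbp3, 2362 for Igfbp4, 6006 for Igfbp5 and 1035 for Igfbp7. Intervals below are 95% Poisson or exact binomial intervals from these reads. They cover counting error only and hold no spread between replicates. Copies made by PCR were not marked, and the intervals are too narrow where reads include such copies.

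The receptor gene Igf1r (ENSMUSG00000005533) stood at 5.51, 13.4, 40.6 and 49.1 RPKM over ESC, MES, CP and CM. Its level was higher at each later stage, and the largest step lay between MES and CP, where it was 3.03-fold higher in CP (95% interval 2.96 to 3.09). In CM it was 1.21-fold higher than in CP (1.19 to 1.23), and 8.91-fold higher than in ESC (8.66 to 9.18). In rank of level among all 13540 genes it was at place 904 in CM, against place 7097 in ESC.

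Igfbp2 (ENSMUSG00000039323), whose protein binds IGF2 with preference and is abundant in fetal tissue, stood at 226, 42.7, 18.8 and 24.6 RPKM in the 4 stages. ESC stood far above the other stages, and Igfbp2 ranked at place 112 of all genes there. It was 5.30-fold lower in MES than in ESC (5.14 to 5.46) and 2.27-fold lower in CP than in MES (2.16 to 2.39). In CM it was 1.31-fold higher than in CP (1.24 to 1.38), and so 9.22-fold lower than in ESC (8.92 to 9.53).

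Igfbp3 (ENSMUSG00000020427), the main carrier of IGF in blood, stood at 21.9, 5.17, 3.47 and 20.4 RPKM. Both ends of the series were high and both middle stages low. It was 4.23-fold lower in MES than in ESC (3.95 to 4.53) and 5.89-fold higher in CM than in CP (5.44 to 6.38). CM and ESC lay close together, with a ratio of CM over ESC of 0.933 (0.898 to 0.969), and which of them was higher changed with quantile normalization.

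Igfbp4 (ENSMUSG00000017493), which is known in mouse cells also as a secreted inhibitor of WNT signalling that aids heart muscle formation, stood at 14.5, 114.9, 309 and 92.5 RPKM. CP was its highest stage, with place 48 among all genes, and ESC its lowest. It was 7.92-fold higher in MES than in ESC (7.60 to 8.26), 2.69-fold higher in CP than in MES (2.64 to 2.74) and 3.34-fold lower in CM than in CP (3.29 to 3.40).

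Igfbp5 (ENSMUSG00000026185), the most conserved of the family among vertebrates and a protein that also binds matrix, stood at 1.13, 8.20, 47.4 and 252 RPKM. Every stage stood well above the one before it. It was 7.25-fold higher in MES than in ESC (6.60 to 7.97), 5.78-fold higher in CP than in MES (5.57 to 6.01) and 5.32-fold higher in CM than in CP (5.24 to 5.40). Over the whole series CM stood 223-fold above ESC (204 to 244), and the gene was at place 98 of all genes in CM, against place 11167 in ESC.

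Igfbp7 (ENSMUSG00000036256), a distant member of the family that binds IGF weakly and is a secreted product of many vessel and matrix cells, stood at 5.98, 0.125, 0.254 and 269 RPKM. It was near the floor in MES and CP, with 8 and 17 reads, and was the highest of the binding protein genes in CM. It was 47.9-fold lower in MES than in ESC (24.1 to 112). CP and MES differed by less than counting error, with a ratio of CP over MES of 2.03 (0.831 to 5.44). In CM it stood 1060.1-fold above CP (662 to 1820.1), and on the log2(RPKM + 1) scale only 1 of 13540 genes had a larger difference in that comparison.

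**Figure D1:**
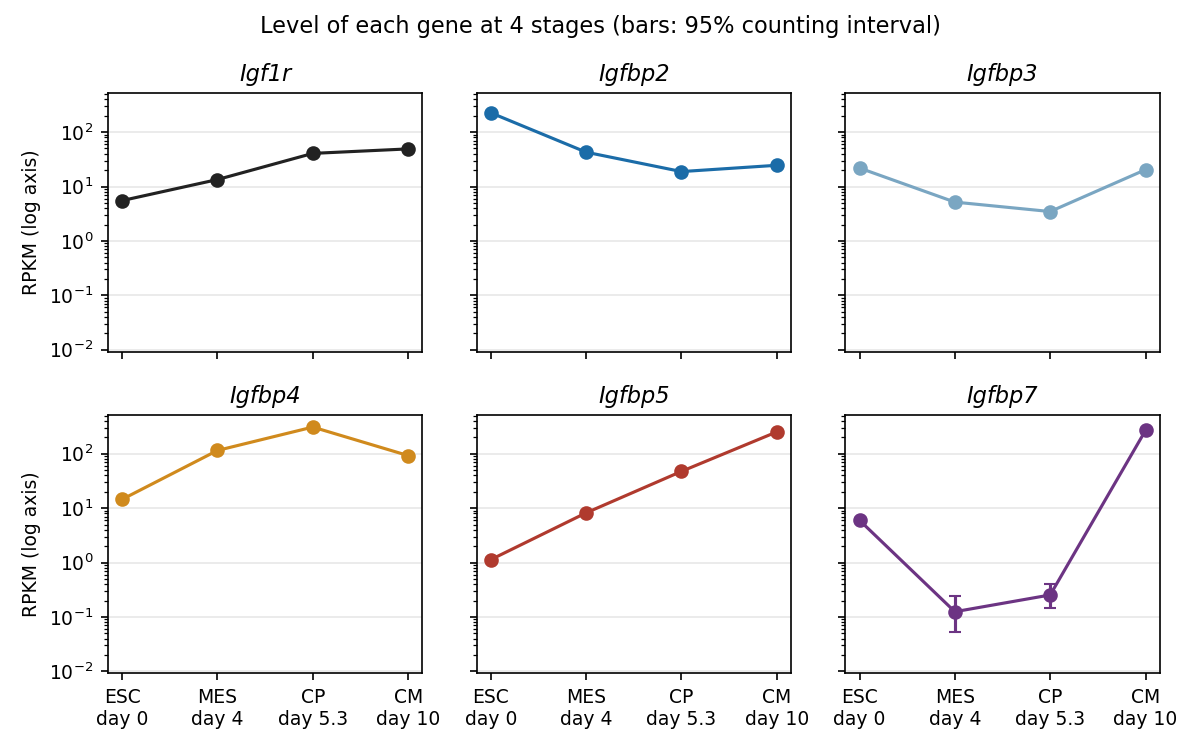
RPKM on a log axis at each stage, ESC to CM, for Igf1r and 5 IGF binding protein genes, 1 panel per gene. Points are the authors' values and bars are 95% counting intervals. Igfbp5 is higher at every later stage and stands at 252 RPKM in CM, while Igfbp7 is lowest in MES at 0.125 RPKM and highest in CM at 269 RPKM.

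Since RPKM is per length, levels of these genes can be set beside each other as far as the gene models fit the transcripts made. That fit was not checked. GENCODE M21 exon lengths equal the models for Igfbp2 and Igfbp5. They are 4416 bases against 2362 for Igfbp4, 3130 against 3104 for Igfbp3 and 1209 against 1035 for Igfbp7. Summed over the 5 binding protein genes, the level was 269.9, 171, 379 and 659 RPKM over ESC, MES, CP and CM. The leading gene changed with the stage. Igfbp2 held 83.9% of it in ESC, Igfbp4 held 67.1% in MES and 81.5% in CP, and Igfbp7 and Igfbp5 held 40.8% and 38.3% in CM. Igfbp2 held 25.0% in MES and 4.96% in CP. Igfbp5 held 0.419% in ESC, 4.79% in MES and 12.5% in CP. Igfbp3 held at most 8.10%, its share in ESC. The IGF binding proteins Igfbp1 and Igfbp6 were not analysed here, so the sum does not cover the whole family. The closest pair of levels in CM was Igfbp7 at 269 RPKM (265 to 272) and Igfbp5 at 252 RPKM (251 to 254), whose counting intervals do not overlap but whose order has no replicate check.

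**Figure D2:**
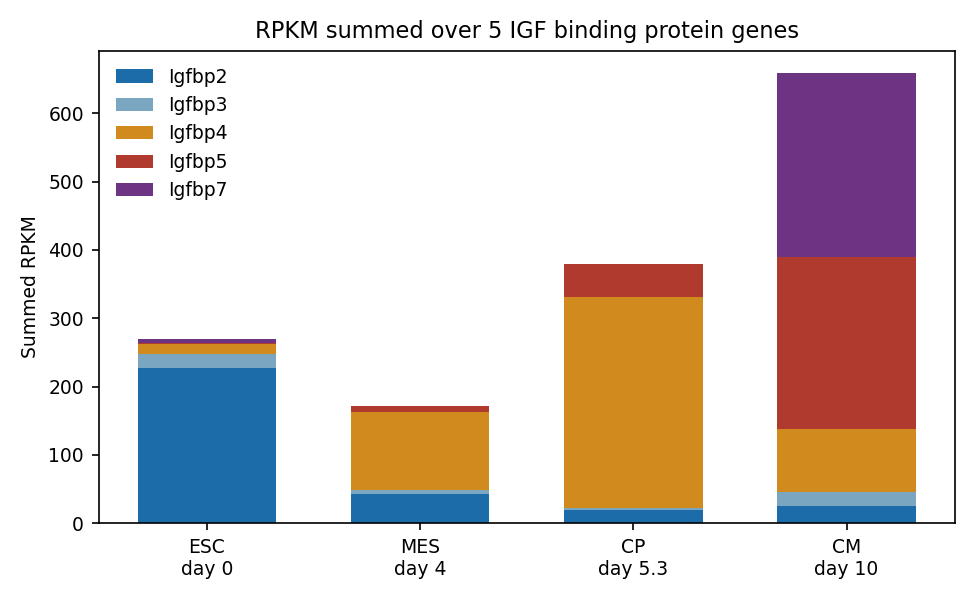
RPKM summed over Igfbp2, Igfbp3, Igfbp4, Igfbp5 and Igfbp7 at each stage, on an axis from 0, with 1 colour per gene. The bar is mostly Igfbp2 in ESC, mostly Igfbp4 in MES and CP, and mostly Igfbp7 and Igfbp5 in CM, where the sum is 659 RPKM.

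Differences between stages were taken on the log2(RPKM + 1) scale, where the added 1 understates differences of low genes, and a gene was counted when it lay at least 2-fold apart. In MES, 3 of the 6 genes were higher than in ESC, by 1.15 for Igf1r, 2.90 for Igfbp4 and 2.11 for Igfbp5, beside 11.1% of all genes. The other 3 were lower, by -2.38 for Igfbp2, -1.89 for Igfbp3 and -2.63 for Igfbp7, beside 11.2% of all genes. In CP, 3 were higher than in MES (Igf1r by 1.53, Igfbp4 by 1.42 and Igfbp5 by 2.40), beside 8.91% of all genes, and Igfbp2 was lower by -1.14, beside 3.91%. In CM, 3 were higher than in CP (Igfbp3 by 2.26, Igfbp5 by 2.39 and Igfbp7 by 7.75), beside 11.3% of all genes, and Igfbp4 was lower by -1.73, beside 12.8%. Between the ends of the series, 4 were higher in CM than in ESC (Igf1r by 2.94, Igfbp4 by 2.59, Igfbp5 by 6.89 and Igfbp7 by 5.27), beside 22.2% of all genes, and Igfbp2 was lower by -3.15, beside 23.4%. Igfbp3 differed by -0.10 between CM and ESC. These counts describe genes chosen for their values, and adjacent comparisons share a stage, so nothing further is read from them. The medians of the 6 genes were -0.37, 0.79, 1.31 and 2.77 in the 4 comparisons, beside 0.05, -0.03, -0.15 and -0.03 over all genes.

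**Figure D3:**
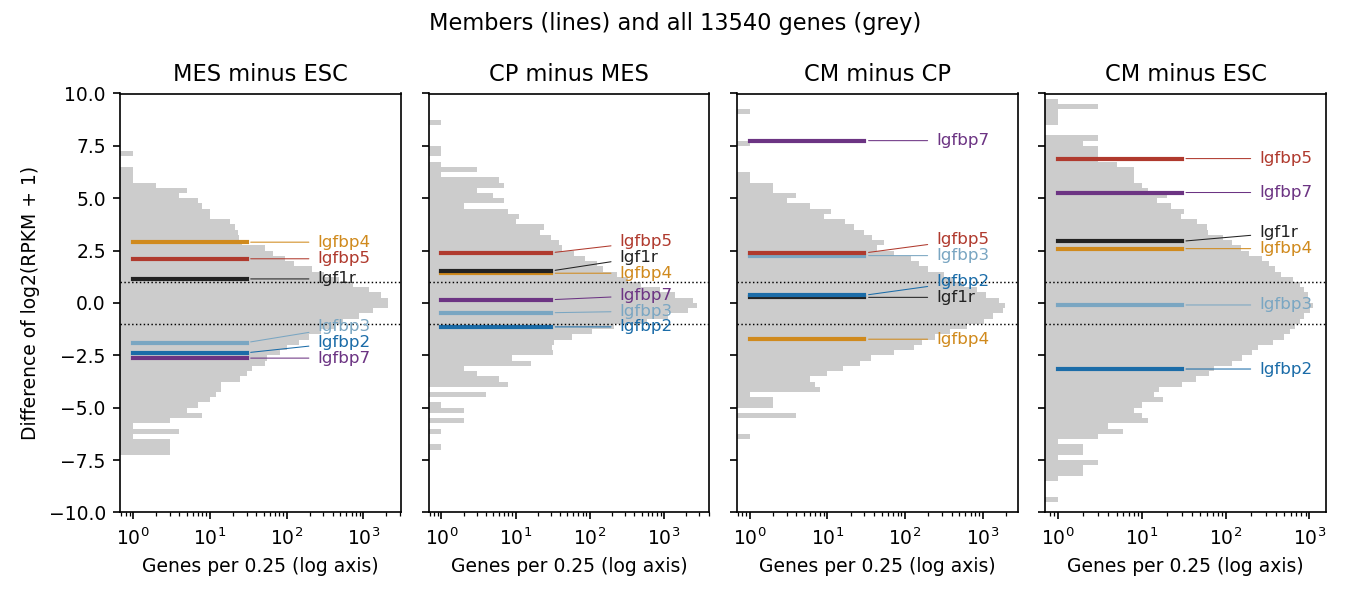
Difference of log2(RPKM + 1) in the 4 comparisons, each named as first stage minus second. Grey bars count all 13540 genes in steps of 0.25 on a log axis, coloured lines (their length has no meaning) mark the 6 genes, and dotted lines mark 2-fold. Igfbp7 lies near the top of the range in CM minus CP at 7.75, and Igfbp2 lies lowest of the 6 in CM minus ESC at -3.15.

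Over the 3 adjacent steps, the 6 genes showed 5 different sequences of higher, lower and under 2-fold. Igfbp5 was higher at all 3 steps, as were 16 genes (0.118%) of the table with it included. Igf1r was higher, higher and then under 2-fold, as in 63 genes (0.465%). Igfbp4 was higher, higher and then lower, as in 57 genes (0.421%). Igfbp2 was lower, lower and then under 2-fold, as in 31 genes (0.229%). Igfbp3 and Igfbp7 shared the sequence lower, under 2-fold and higher with 179 genes (1.32%) in all. In range over the stages Igfbp7 was at place 20 of all genes with 7.91, Igfbp5 at place 49 with 6.89, and Igfbp3 at place 2265 with 2.36.

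Igfbp2 and Igfbp5 are adjacent protein-coding genes on chromosome 1 that point towards each other (GENCODE M21, GRCm38), and their levels took opposite courses, with Igfbp2 at 24.6 RPKM in CM against 226 RPKM in ESC and Igfbp5 at 252 RPKM in CM against 1.13 RPKM in ESC. Rpl37a, a ribosomal protein gene on the other side of Igfbp2, stood at 10.2, 10.9, 5.26 and 4.17 RPKM over the stages. Igfbp3 lies beside Igfbp1 on chromosome 11, and its other neighbour Tns3, which encodes a focal adhesion protein, stood at 33.0, 4.29, 3.77 and 9.31 RPKM. Igfbp4, further along chromosome 11, lies beside Top2a, a topoisomerase gene of dividing cells, at 90.0, 85.7, 66.0 and 13.1 RPKM. Igfbp7 on chromosome 5 lies beside Polr2b, an RNA polymerase II subunit gene, at 44.6, 39.0, 28.6 and 16.5 RPKM.

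The promoters of Igfbp2, Igfbp4, Igfbp5 and Igfbp7 are shown because these 4 genes had the widest ranges of level over the stages among the 6. Each is the run of 250 bases before the RefSeq start site in GRCm38.p6, the reference of another strain, read on the gene's strand. The windows are chr1:72824230-72824479 (plus strand) for Igfbp2, chr11:99040994-99041243 (plus strand) for Igfbp4, chr1:72874866-72875115 (minus strand) for Igfbp5 and chr5:77408046-77408295 (minus strand) for Igfbp7. Capitals mark TATAAA and GGGCGG, searched on both strands.
Igfbp2: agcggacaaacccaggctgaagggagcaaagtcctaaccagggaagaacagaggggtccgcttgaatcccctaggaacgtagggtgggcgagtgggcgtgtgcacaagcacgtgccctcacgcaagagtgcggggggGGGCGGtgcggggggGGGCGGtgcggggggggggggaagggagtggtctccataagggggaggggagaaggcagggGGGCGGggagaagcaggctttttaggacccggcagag
Igfbp4: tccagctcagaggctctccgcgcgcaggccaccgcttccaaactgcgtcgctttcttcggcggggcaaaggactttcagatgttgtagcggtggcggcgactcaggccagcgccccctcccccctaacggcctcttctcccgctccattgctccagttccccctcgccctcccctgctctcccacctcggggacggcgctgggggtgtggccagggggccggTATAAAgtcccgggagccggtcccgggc
Igfbp5: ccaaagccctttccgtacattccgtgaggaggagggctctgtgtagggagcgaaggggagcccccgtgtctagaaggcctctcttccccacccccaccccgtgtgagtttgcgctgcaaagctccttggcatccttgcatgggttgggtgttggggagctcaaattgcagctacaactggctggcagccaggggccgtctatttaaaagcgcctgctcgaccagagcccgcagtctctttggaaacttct
Igfbp7: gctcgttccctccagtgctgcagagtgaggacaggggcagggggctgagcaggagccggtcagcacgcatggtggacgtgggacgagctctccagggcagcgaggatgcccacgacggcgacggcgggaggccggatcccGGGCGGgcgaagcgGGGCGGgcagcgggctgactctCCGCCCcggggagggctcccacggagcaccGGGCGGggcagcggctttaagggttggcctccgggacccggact

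TATAAA, the letters of a TATA box, occurred in Igfbp4, starting 28 bases before the start site, and in none of the other members. It occurs in 12.4% of 32851 RefSeq promoter windows of this length. GGGCGG, the letters of a GC box, occurred 4 times in Igfbp7, of which 1 was on the opposite strand, 3 times in Igfbp2 and 2 times in Igf1r. It occurs in 32.7% of the windows, and was not in the windows of Igfbp3, Igfbp4 and Igfbp5. The second RefSeq start site of Igfbp2 had neither. The GC content of the shown windows was 67.2% for Igfbp2, 69.2% for Igfbp4, 58.8% for Igfbp5 and 74.0% for Igfbp7, beside a median of 52.4% over all windows. These matches describe the letters and are not binding sites.

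The other receptor genes Igf2r and Insr were, like Igf1r, higher at each later stage. Igf2, the fetal IGF ligand, stood at 25.5, 107, 1277 and 1165 RPKM, so that its level relative to the summed binding protein genes was 0.0944, 0.625, 3.37 and 1.77. Igf2 levels in CP and CM lay close together. On the log2(RPKM + 1) scale CM minus CP was -0.13 for Igf2, beside a median of -0.15 over all genes. Which of these stages was higher for Igf2 was not checked under other scalings. The longest Igf2 transcript shares 76.0% of its 32-base words with transcripts of other genes, and its level is uncertain if shared reads were split or dropped. Igf1 was far lower, at 0.0697, 0.0228, 5.05 and 0.352 RPKM, with its highest value in CP. Igf2r, which encodes the receptor that takes up and degrades IGF2, stood at 18.0, 27.3, 235 and 497 RPKM and was 10.1 times the level of Igf1r in CM, against 3.26 times in ESC. The insulin receptor gene Insr stood at 1.48, 5.72, 9.69 and 16.8 RPKM, below Igf1r at every stage, with Igf1r at 3.72, 2.35, 4.19 and 2.92 times its level. Igfbpl1, a gene related to the binding proteins, stood at 2.30, 8.14, 21.8 and 0.202 RPKM, with its highest value in CP like Igfbp4.

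Of 8 genes of proteases that cut binding proteins, of their partners or of their inhibitors, 6 were at least 2-fold higher in CM than in CP and 0 lower, beside 11.3% and 12.8% of all genes (median 1.53, beside -0.15 over all genes). Htra1, a secreted protease that cuts IGFBP5, stood at 6.97, 2.66, 0.852 and 28.4 RPKM. Like Igfbp3 and Igfbp7, it was lower in both middle stages than at both ends of the series. Pappa, the protease of IGFBP4 and IGFBP5, stood at 0.113, 2.86, 0.0722 and 1.52 RPKM. It was low both in CP, with 52 reads, where Igfbp4 was highest, and in ESC, with 95 reads, where Igfbp4 was lowest. Stc1 and Stc2, which encode stanniocalcins that inhibit PAPPA, stood at 0.392, 1.26, 1.70 and 10.6 RPKM and at 9.49, 1.28, 2.54 and 19.7 RPKM. The metalloproteinase genes Adamts1 and Mmp2 stood at 1.64, 2.89, 12.2 and 42.5 RPKM and at 6.36, 36.5, 60.5 and 76.6 RPKM. Ctsd, a lysosomal protease, stood at 66.6, 67.5, 98.5 and 252 RPKM, with 37.1% of its words shared. Klk1, a kallikrein, reached no more than 1.14 RPKM and was listed at 0 in MES. In MES, 2 of these 8 genes were higher and 3 lower than in ESC, beside 11.1% and 11.2% of all genes. In CP, 1 was higher and 1 lower than in MES, beside 8.91% and 3.91%. Between CM and ESC, 6 were higher and 1 lower in CM, beside 22.2% and 23.4%.

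**Figure D4:**
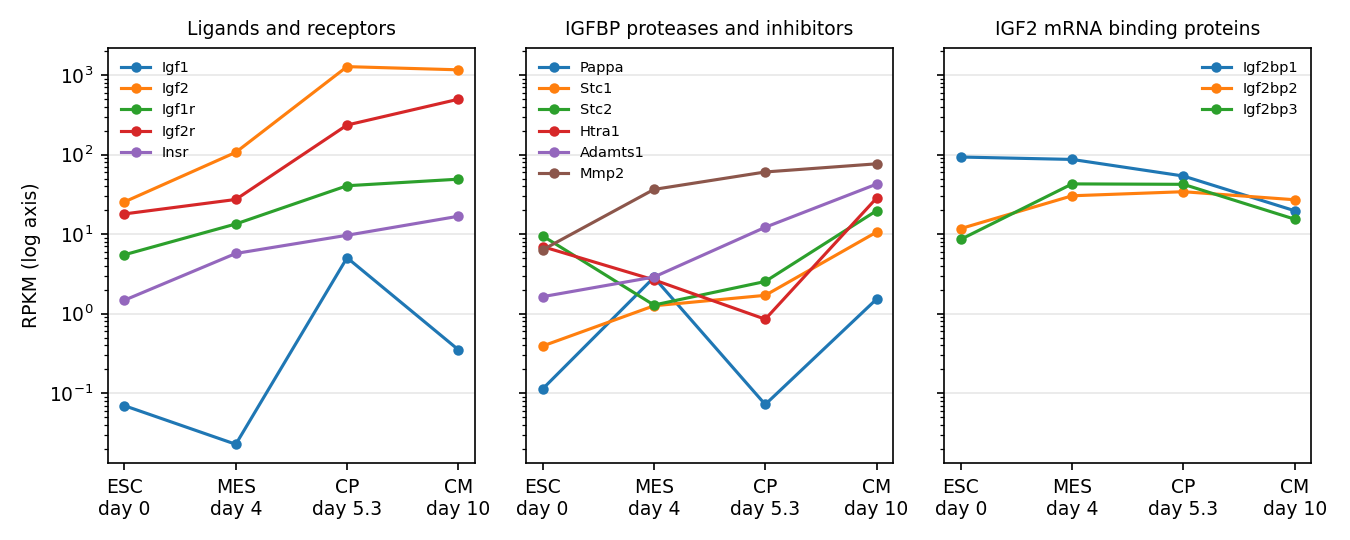
RPKM on a log axis at the 4 stages for IGF ligands and receptors, for proteases of IGF binding proteins and their inhibitors, and for the genes of IGF2 mRNA binding proteins. Points are the authors' values, with no replicate spread. Igf2 and Igf2r reach 1165 and 497 RPKM in CM, while Igf1 is highest in CP at 5.05 RPKM.

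Over all 62 other genes of the IGF pathway lists in the table, 13 were higher and 8 lower in MES than in ESC (median 0.40), beside 11.1% and 11.2% of all genes. In CP, 8 were higher and 2 lower than in MES (median 0.03), beside 8.91% and 3.91%. In CM, 11 were higher and 8 lower than in CP (median -0.02), beside 11.3% and 12.8%, and 19 were higher and 8 lower than in ESC (median 0.30), beside 22.2% and 23.4%. Of the 22 PI3K, AKT and mTOR genes, which carry the receptor's signal inside the cell, 3 were higher and 3 lower in MES than in ESC, and 1 higher and 0 lower in CP than in MES. In CM, 1 of these 22 was higher and 1 lower than in CP, and 4 were higher and 2 lower than in ESC. Large ranges there were those of Inpp5d, a lipid phosphatase of blood cells (13.8, 0.600, 2.90 and 1.10 RPKM), Pik3r3 (2.01, 8.27, 8.04 and 0.569 RPKM) and Pik3cb (12.0, 1.51, 2.57 and 2.26 RPKM). Of 11 adaptor genes, the widest were Irs1, a docking protein of both receptors (1.36, 5.70, 5.69 and 17.7 RPKM, with 30.6% of its words shared), Gab1 (93.1, 13.8, 23.3 and 44.7 RPKM), Grb10, an imprinted inhibitor of both receptors (33.5, 75.6, 209.5 and 140.4 RPKM), and Grb14 (0.231, 0.265, 1.73 and 4.83 RPKM).

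All 4 FOXO genes, whose factors AKT keeps out of the nucleus, were in the table. Foxo3 stood at 13.8, 23.3, 17.3 and 44.4 RPKM and Foxo4 at 21.4, 56.2, 46.7 and 25.8 RPKM. Foxo1 stood at 9.79, 3.95, 6.07 and 11.4 RPKM, and Foxo6 at 1.14, 2.30, 1.00 and 1.12 RPKM. Of 9 RAS and ERK genes, none lay 2-fold apart between MES and ESC, beside 11.1% of all genes higher and 11.2% lower in MES. Between CP and MES none of the 9 did, beside 8.91% of all genes higher and 3.91% lower in CP. In CM, 1 was lower than in ESC, beside 23.4% of all genes, and 2 were lower than in CP, beside 12.8%, among them the kinase gene Map2k2 at 16.5 RPKM in CM against 36.0 RPKM in CP. Braf and Nras stood at 8.24, 16.5, 8.65 and 7.74 RPKM and at 32.8, 43.6, 34.4 and 22.2 RPKM. For Braf, MES minus ESC was 0.92 on the log2(RPKM + 1) scale, close to the 2-fold minimum. With stages scaled to a sum of 1000000, 1 of the 9 genes lay 2-fold apart in that comparison. The IGF2 mRNA binding proteins bind RNA inside the cell and are not relatives of the binding proteins above. Igf2bp1 stood at 93.3, 87.0, 53.8 and 19.7 RPKM, Igf2bp2 at 11.8, 30.4, 34.2 and 27.1 RPKM, and Igf2bp3 at 8.62, 42.8, 42.3 and 15.4 RPKM.

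Summed markers of other cell types shared their highest or lowest stage with several of these levels, but not every step. Their part in these levels was not tested. These are bulk samples, in which fewer cells of a type and less RNA per cell cannot be told apart. The 5 smooth muscle markers, all in the table, summed to 306, 10.3, 705 and 3403 RPKM over ESC, MES, CP and CM, with Acta2 at 131, 1.96, 498 and 1944 RPKM and Myl9 at 32.9, 3.61, 139 and 975 RPKM. Myh11 of the same list stood at 0.193, 0.113, 2.95 and 3.08 RPKM, nearly level between CP and CM. The 6 fibroblast and matrix markers in the table, of 7 listed, summed to 20.2, 3.72, 26.5 and 241 RPKM. Of these, Col1a1 stood at 14.8, 0.615, 19.9 and 151 RPKM, Col3a1 at 1.02, 0.0173, 1.70 and 62.5 RPKM, and Lum was listed at 0 in all stages but CM. Thy1 of the same list took the opposite course, at 3.43, 2.43, 0.577 and 0.221 RPKM, lowest in CM. The summed levels of both lists were lowest in MES, as was Igfbp7, and highest in CM, as were Igfbp5 and Igfbp7. Between ESC and MES both sums went the other way from Igfbp5, which stood at 8.20 RPKM in MES against 1.13 RPKM in ESC. The summed cardiomyocyte markers were likewise lowest in MES, where they lay slightly below ESC, and highest in CM, at 9493 RPKM. Which cell type carried Igfbp5 or Igfbp7 was not tested. Early heart muscle cells also express smooth muscle actin.

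All 8 endothelial markers were in the table and summed to 27.8, 8.96, 279 and 117 RPKM, highest in CP as was Igfbp4. In MES this sum was lower than in ESC, while Igfbp4 was higher, at 114.9 RPKM against 14.5 RPKM. Cdh5 stood at 0.115, 0.215, 71.3 and 35.5 RPKM and Tie1 at 0.362, 0.108, 50.1 and 18.8 RPKM. Emcn of the same list was listed at 0 in ESC and MES and was highest in CM, at 1.54 RPKM against 0.993 RPKM in CP. The 6 blood markers in the table, of 7 listed, summed to 1.60, 6.31, 263 and 10.4 RPKM and were also highest in CP, led by the embryonic globin genes Hbb-bh1 at 129 RPKM and Hba-x at 84.7 RPKM. Both globin genes were listed at 0 in ESC. The epicardial markers (4 of 5 listed) summed to 2.46, 46.5, 13.9 and 4.26 RPKM and were led by Aldh1a2 at 45.2 RPKM in MES and Tcf21 at 10.1 RPKM in CP. The sum in MES was nearly all Aldh1a2, with Wt1 at 0.0417 RPKM and Upk3b at 0.0344 RPKM there. The endoderm markers (3 of 5) summed to 0.229, 16.4, 13.9 and 2.91 RPKM, led by Sox17 and Foxa2. The neural markers (3 of 5) summed to 102, 7.50, 4.75 and 2.02 RPKM, led by Tubb3 at 97.2 RPKM in ESC, and were highest in ESC as was Igfbp2, like the pluripotency markers, which summed to 1383, 84.7, 9.70 and 2.81 RPKM. The neural sum in ESC was nearly all Tubb3. Pax6 of the neural list was highest in CP, at 4.21 RPKM against 1.99 RPKM in ESC.

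For each of the 6 genes the 3 genes with the most similar course were found among those that reach 10 RPKM, by the root mean square difference of log2(RPKM + 1) values after each gene was centred on its own mean. With 4 stages many genes come close, and the measure is a description. Closest to Igf1r was Ptn, which encodes the secreted growth factor pleiotrophin, at a distance of 0.07 (0.650, 2.76, 8.71 and 10.9 RPKM), followed by the transcription factor gene Zeb1 and by Tgfb1i1. Closest to Igfbp2 were Plk3, Pcsk1n and Alg13, at 0.16, 0.17 and 0.21. Closest to Igfbp3 were Got1, an aminotransferase gene, at 0.18 (79.2, 25.7, 20.2 and 77.6 RPKM), the kinase anchor gene Akap1, and Timp1, which encodes an inhibitor of metalloproteinases. Closest to Igfbp4 was Igf2as, the antisense gene of Igf2, at 0.14 (0.507, 8.40, 22.2 and 6.30 RPKM), whose reads cannot be told from those of Igf2 without strand. It was followed by Zfpm1, a partner of GATA factors, and by Smarcd3, a BAF complex subunit gene with 63.0% of its words shared. Closest to Igfbp5 were Pam, which encodes an enzyme that amidates peptide hormones, at 0.35 (3.10, 10.9, 47.5 and 401 RPKM), the muscle gene Adssl1, and Lbh. Igfbp7 had no close match. The nearest were Mb, the myoglobin gene, at 0.99 (0.429, 0, 0.515 and 112 RPKM, with 35.1% of its words shared), Coro6 at 1.02 and Nppb, a natriuretic peptide gene, at 1.05. In ESC Mb and Nppb stood at 0.429 and 0.425 RPKM, below Igfbp7 at 5.98 RPKM.

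Among the 6 genes themselves the nearest pair was Igf1r and Igfbp4, at a distance of 0.95, and next came Igfbp2 and Igfbp3 at 1.16. Even so, Igfbp4 was at place 1502 when 7016 genes were ordered by their distance to Igf1r. In the order by distance to Igfbp4, Igf1r was at place 296. The farthest pair was Igfbp4 and Igfbp7 at 3.90, followed by the adjacent genes Igfbp2 and Igfbp5 at 3.82.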

How the data were processed

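The mRNA was purified on beads and read on a GAIIx instrument, per the labels' protocols. Reads were aligned with Novoalign 2.07.00 to build mm9, per the submitters' processing notes. The deposited values are RPKM per the file headers, with 1 column per stage. Not given in the sources used here are the read counter, the annotation release, the gene filter and whether a stage value pools both libraries. Every gene in the table exceeds 1 RPKM at some stage, and the lowest such maximum is 1.000174 RPKM. Of 77 genes in the IGF lists 68 were in the table, with Hras matched by gene ID, and the others were not analysed here.

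The members, lists and markers were chosen with earlier results of these data known. Genes named outside the 6 members are all those of the ligand, receptor, binding protein, protease and mRNA binding protein lists, the 4 with the widest range of each other list, the 2 highest markers of each cell type and the 3 genes most like each member. Further genes (Emcn, Kdr, Lum, Myh11, Pdgfra, Thy1, Upk3b, Wt1 and neighbouring genes) were named after their values were seen. Some genes that this rule names are not reported here. Differences are log2(RPKM + 1), with a minimum of 2-fold. Their counting was tested on simulated data.

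Depth came from low values: 75.2% of 1654 low genes lay on whole multiples of a step in all stages (relative tolerance 5e-07), against 0% with wrong depths. Of 7351 genes set against GENCODE M21 exon lengths, 25.6% gave an absolute depth within 0.1% of the commonest one. For a gene of 2 kb, 3 reads correspond to 0.0199, 0.0242, 0.0232 and 0.0169 RPKM over ESC, MES, CP and CM. The 2 libraries of a stage are called biological duplicates in the series' design text. Shared sequence was measured on the longest M21 transcript, as the percentage of its 32-base words that also occur in other genes' transcripts, and was at most 6.01% in the 6 members. Promoters are from RefSeq (GRCm38.p6) and all 6 members matched. Protein sequences were not used here. Python 3.11.15, numpy 2.4.6, pandas 2.3.3 and scipy 1.17.1 were used. Alternatives were pseudocounts of 0.1 and 0.5, stages scaled to a sum of 1000000, quantile and median-of-ratios scaling, a minimum of 4-fold and genes that reach 3 RPKM.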

Additional observations from a re-analysis of the deposited data

How the results depend on the processing

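Of 120 log2 differences of the 6 genes under 5 alternatives of pseudocount or scaling, 118 kept their sign and their side of 2-fold. The exceptions came with quantile normalization, where Igf1r in MES minus ESC was 0.98 and Igfbp3 in CM minus ESC was 0.02, and where the highest stage of Igfbp3 was day 10. At a minimum of 4-fold, 1 member was higher and 0 lower in CP than in MES (1 in all), and 0 were lower in CM than in CP. At that minimum the other IGF pathway genes came to 3 higher and 4 lower (7 in all) in MES minus ESC, 3 and 0 (3) in CP minus MES, 3 and 3 (6) in CM minus CP, and 10 and 4 (14) in CM minus ESC, and all genes to 376 and 470 (846), 371 and 118 (489), 437 and 320 (757), and 1182 and 1050 (2232). A pseudocount of 0.1 gave 4 other IGF pathway genes lower in CP minus MES, and over all genes 2273 higher in MES minus ESC, 1889 higher and 942 lower (2831) in CP minus MES, and 2686 lower in CM minus CP. Stages scaled to a sum of 1000000 gave 1818 genes higher in CP minus MES and 2799 lower in CM minus CP. Scaling moved the median of all genes in CM minus CP, which was -0.15 as deposited, -0.29 with that scaling and -0.04 with median-of-ratios scaling. Without Igfbp7, the share of Igfbp2 in the sum of binding protein genes was 85.8% in ESC, and in CM the shares were 6.30% for Igfbp2, 5.23% for Igfbp3, 23.7% for Igfbp4 and 64.7% for Igfbp5. With a pseudocount of 0.1, 3 of the 3 genes most like Igfbp3 stayed, 2 each for Igf1r and Igfbp5, 1 each for Igfbp2 and Igfbp7 and 0 for Igfbp4. The cause of these changes was not tested. Depth limits only Igfbp7 in MES and CP, with 8 and 17 reads. Leaving out a library could not be run, since the table has 1 value per stage. No paired analysis was possible because the columns carry no replicate numbers.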
